A study of Mus musculus with 17 samples.

Results

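The 5 mouse brains described here were each measured on an array of their own, so that they show how much gene expression differed from animal to animal after the same injury and treatment. Each was a single brain subjected to 1 h of ischemia, given the catalytic antioxidant AEOL 10150 by intravenous injection and then reperfused for 6 h. They are 5 of the 17 arrays of the series, chosen because their labels name a single brain, and they are called brains 11, 12, 13, 14 and 16 after the numbers in those labels. Every array carried mRNA from grey and white matter of the middle cerebral artery territory. The other 12 arrays carried RNA pooled from 6 brains each, with 3 arrays in each of 4 groups. Treated ischemic pools had the same ischemia, drug and reperfusion as the single brains. Ischemic pools had 1 h of ischemia and 6 h of reperfusion, with no drug named. Drug control pools were given AEOL 10150 without ischemia and collected 6 h later, and control pools were given saline and collected 6 h later. The labels give no dose, strain, sex or age. Brain 11 is numbered 4 in its title. The description of treated ischemic pool 1 names no drug, and that of drug control pool 1 names saline, against their titles.

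In a focal stroke model the flow of an artery to part of the brain is stopped and later restored. Cells in the affected tissue switch on immediate early genes and heat shock proteins within hours, and glia, vessels and arriving blood cells produce chemokines and interferon-induced proteins. A piece of brain tissue also carries transcripts that belong to its place: peptide hormones of hypothalamic neurons, enkephalin of the striatum, transcription factors of the cortex, and transthyretin of the choroid plexus, the tissue that secretes cerebrospinal fluid.

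Intensities were brought to a common trimmed mean of 2500 on every array, values under a floor of 109.5 were raised to it, and the log2 of the result was used, which puts the floor at 6.77. Levels below are these log2 values, and the 5 values of a gene are given in the order of brains 11, 12, 13, 14 and 16. A probe set was called bright where its mean scaled intensity over the 5 brains reached 2500, which held for 3655 of 12488 probe sets. The deposited trimmed means of the single brains ran from 129 to 210. The control probe sets for actin gave 3'/5' ratios, which rise as RNA degrades, of 1.38 to 1.60 in the single brains, and those for Gapdh 1.15 to 1.27. Between 24.3% and 24.9% of values lay at the floor, and the medians of the bright probe sets differed by at most 0.03 between brains. No single brain stood apart in these measures. Xist, the transcript that silences the second X chromosome, was at the floor in all 5, while the Y-linked Eif2s3y measured 10.39 to 10.79.

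Most genes were close to equal in the 5 brains. The median SD of a bright probe set was 0.14, the 5th and 95th percentiles were 0.05 and 0.37, and the median ratio of the highest to the lowest brain was 1.28. An SD under 0.1 was found for 951 bright probe sets (26.0%). An SD of 0.5 or more, a typical departure of 1.41-fold, was found for 62 of 3655 (1.7%), which represent 54 named genes. These are called variable below. Just inside that limit lay Sacm1l with an SD of 0.50039, and just outside it Gria2 with 0.49935. The 62 probe sets held 32.2% of the summed variance of all bright probe sets, and the first 5 in order, Ttr, Shox2, Avp, Hcrt and Oxt, held 16.8%. Dimmer probe sets varied more: the median SD was 0.17 in the dimmest 25% of the bright probe sets and 0.12 in the brightest 25%, and 28 of the variable probe sets lay among the dimmest 25% against 6 among the brightest.

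**Figure D1:**
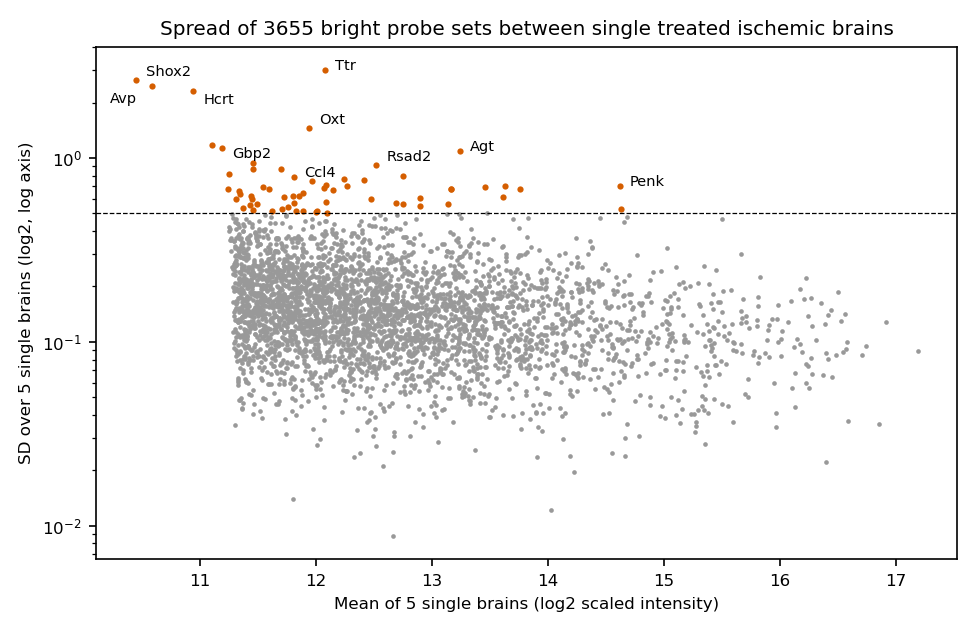
SD over the 5 single brains (vertical, log2 on a log axis) against mean level (horizontal, log2 scaled intensity), 1 point per bright probe set, with the 62 at or above an SD of 0.5 (dashed line) in orange. Ttr, Shox2, Avp, Hcrt and Oxt stand above the rest, with SDs of 1.45 to 3.00 against a median of 0.14.

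The most variable transcript was that of transthyretin (Ttr), the thyroid hormone carrier that choroid plexus epithelium makes in large amounts. Ttr measured 6.77, 13.95, 12.82, 13.08 and 13.76 in the single brains, against 12.62, 13.21 and 12.98 in the treated ischemic pools. Brain 11 was at the floor, with a scaled intensity of 11, while the other 4 brains lay between 7216 and 15803. The highest brain was at least 144-fold above brain 11. In all 12 pools Ttr lay between 12.06 and 13.57, so brain 11 was far below every other array. Without brain 11 the SD of Ttr was 0.54, against 3.00 with it.

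Other genes of the choroid plexus that are not bright, named after their values were seen, were low in brain 11 as well. Folr1, a folate receptor, measured 7.01, 10.58, 10.60, 9.98 and 9.64. Klotho (Kl), a membrane protein of choroid plexus and kidney, measured 6.77, 10.40, 8.80, 9.88 and 9.75. Brain 11 was thus lowest for both, at or near the floor. The bicarbonate transporter Slc4a5 and coagulation factor V (F5) were also at the floor in brain 11, and Slc4a5 in brain 13 too. Not every gene of the list followed: Igf2, also made by meninges, measured 13.59, 13.29, 13.93, 14.18 and 14.10, and the water channel Aqp1 9.30, 9.10, 8.85, 9.60 and 9.42. Of the 19 choroid plexus and ependyma genes on the array 3 were bright, and the mean of their centred levels was -1.95 in brain 11 against 0.29 to 0.70 in the other 4 brains. That mean largely restates Ttr, since Igf2 and Igfbp2, the other bright members, differed far less between the brains, with Igfbp2 at 12.10, 12.25, 12.42, 12.73 and 12.54. In bulk RNA such as this, fewer cells of a type and less RNA per cell cannot be told apart.

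Genes of the thalamus, hypothalamus and hindbrain made up the most variable of the lists examined. Of 24 such genes on the array 12 were bright, with a median SD of 0.72 against 0.14 over all bright probe sets, and 8 of the 12 were variable against 1.7% overall. Hypocretin (Hcrt), a wakefulness peptide made by neurons of the lateral hypothalamus, measured 8.06, 12.88, 8.81, 12.60 and 12.33 in the single brains, against 10.84, 11.82 and 11.78 in the treated ischemic pools. Shox2, a homeobox transcription factor of thalamic neurons that was in no list, measured 8.49, 12.57, 6.77, 11.81 and 12.57 in the single brains, against 10.85, 11.04 and 11.72 in the treated ischemic pools. For both genes brains 11 and 13 were far below the other 3 and below every treated ischemic pool, and the other 3 were above every treated ischemic pool. A second, dimmer Shox2 probe set differed for brain 14, which was at the floor with brains 11 and 13.

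The same brains were low for a group of less extreme genes. Angiotensinogen (Agt), the precursor of angiotensin, which astrocytes of the diencephalon express strongly, measured 12.01, 14.11, 12.07, 13.92 and 14.08. Calretinin (Calb2), a calcium-binding protein of interneurons and thalamic neurons, measured 12.07, 13.40, 11.72, 13.16 and 13.39. Tyrosine hydroxylase (Th), the rate-limiting enzyme of dopamine synthesis, measured 10.66, 11.50, 10.49, 12.33 and 12.29. Dopa decarboxylase (Ddc), the next enzyme of that pathway, measured 10.47, 11.86, 10.79, 11.88 and 11.67. In each of these 4 genes brains 11 and 13 were the lowest pair. Protein kinase C delta (Prkcd), abundant in thalamic relay neurons, gave the same order of those 2 brains with both of its probe sets, at 12.82, 13.63, 12.70, 13.76 and 14.38 for the brighter. Brains 11 and 13 were the lowest pair in 23 of the 62 variable probe sets (37.1%), against 14.3% of all bright probe sets. Brains 12 and 16 were the highest pair in 13 (21.0%), against 9.85%. These shares describe the 62 chosen for their spread and were not tested.

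The neurohypophysial hormones followed another order. Vasopressin (Avp), which controls water retention, measured 10.12, 12.95, 10.52, 6.77 and 12.55. Oxytocin (Oxt), made by neighbouring hypothalamic neurons, measured 11.47, 13.37, 11.58, 9.93 and 13.35. Brains 12 and 16 were highest and brain 14 lowest for both hormones, whereas brain 14 was among the high brains for Hcrt. Unlike Hcrt, these hormones also varied among pools: in the treated ischemic pools Avp measured 6.77, 10.60 and 10.93, and the pooled SD over the 4 groups of pools was 1.90. Likeness between 2 genes was measured as the root mean square difference of their centred log2 values over the 5 brains, where 0 means identical profiles. Among 2948 genes, the profile nearest to Avp was that of Oxt (0.95), and the nearest to Hcrt was that of Shox2 (0.88). The measure counts amplitude as well as order, so only genes of large SD can lie near Avp or Hcrt. Only 8 bright probe sets had an SD of 1 or more, so these 2 likenesses come from a choice among few genes. Hcrt and Avp were picked for this measure after their values were seen.

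Several genes of the striatum and cortex ran the opposite way. Proenkephalin (Penk), the opioid peptide precursor of striatal projection neurons, measured 15.11, 14.15, 15.62, 14.10 and 14.11 in the single brains, against 14.59 to 15.51 in the 3 treated ischemic pools. Tbr1, a transcription factor of cortical glutamatergic neurons, measured 13.85, 12.62, 13.94, 12.85 and 12.57 in the single brains, against 13.20, 13.78 and 13.56 in the treated ischemic pools. Brains 13 and 11 were the highest for both genes, and the other 3 brains lay close together below every treated ischemic pool. The potassium channel gene Kcnh1 and Tbr1 had the profiles nearest to that of Penk (0.14 and 0.17).

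Of 10 striatal genes on the array 3 were bright, with a median SD of 0.43, and all 3 (Penk, Foxp1 and Pde1b) were highest in brain 13. Over all bright probe sets 22.7% were highest in that brain. Foxp1, a forkhead transcription factor, measured 11.55, 11.03, 12.02, 10.98 and 11.31. The dimmer Meis2, Pdyn and Tac1 were also highest in brain 13 and second highest in brain 11. Of 20 bright cortex and hippocampus genes the median SD was 0.27, and 12 were highest in brain 13. This was not particular to regional genes: on the neuron and synapse list 17 of 27 bright genes were highest in brain 13. Only 2 of the 20 were variable, Tbr1 and Calb2, and Calb2, described above, was lowest in brains 13 and 11. Dkk3, a secreted Wnt antagonist of cortical and hippocampal neurons, measured 12.99, 12.43, 13.27, 12.43 and 12.33. Neurogranin (Nrgn), a calmodulin-binding protein of forebrain synapses, measured 14.90, 15.13, 15.54, 14.86 and 14.71, so that brain 12 came before brain 11 for this gene.

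**Figure D2:**
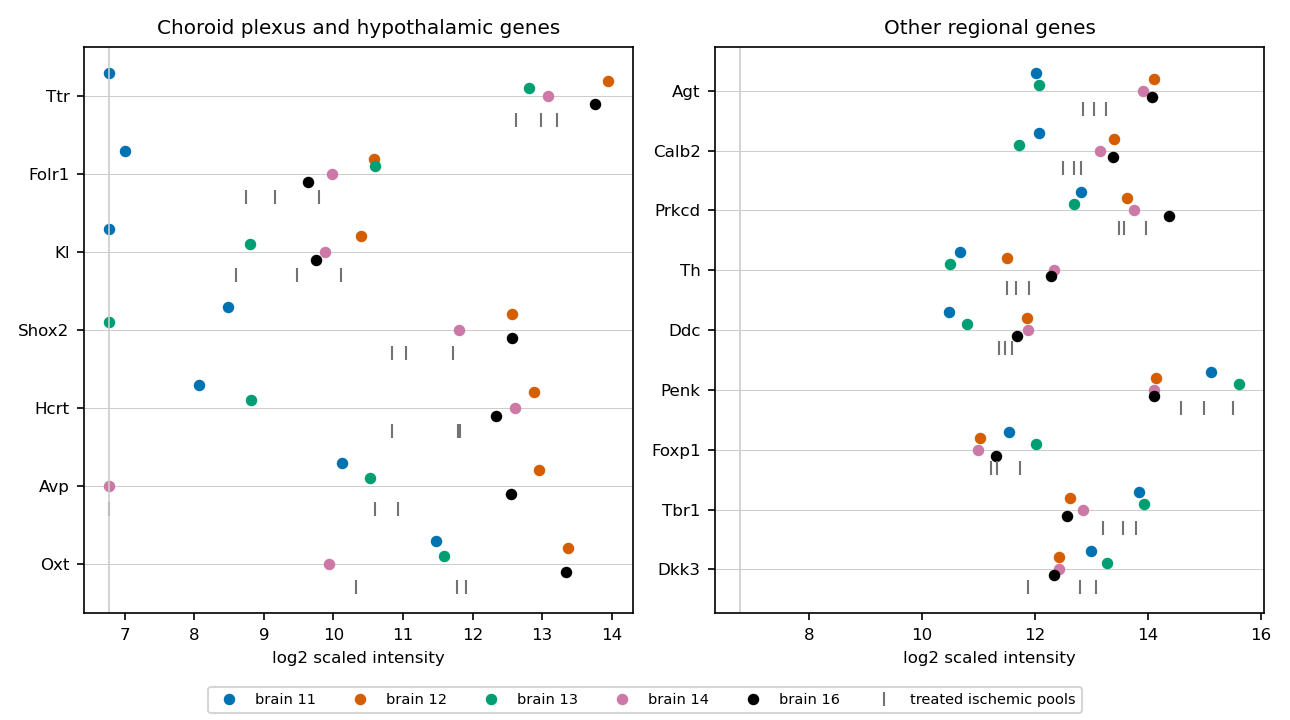
Log2 scaled intensity (horizontal) of choroid plexus, hypothalamic and thalamic genes (left) and of other regional genes (right), with 1 dot per single brain in the upper rows of each gene and 1 bar per treated ischemic pool beneath. The vertical line is the floor. Brain 11 lies at or near the floor for Ttr, Folr1 and Kl, and brains 11 and 13 are lowest from Agt to Ddc and highest for Penk, Foxp1, Tbr1 and Dkk3.

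Glial genes moved less. Among 17 bright astrocyte genes the median SD was 0.17 and 1 was variable, the retinaldehyde dehydrogenase Aldh1a1, at 12.57, 13.36, 12.49, 13.67 and 13.58. The intermediate filament gene Gfap measured 13.64, 13.97, 12.92, 14.10 and 13.86. The myelin genes Mag and Mobp, with SDs of 0.39 and 0.30, were lowest in brains 11 and 13 too. Glutathione peroxidase 3 (Gpx3), a secreted antioxidant enzyme, measured 11.09, 12.48, 11.29, 12.24 and 12.33, again lowest in brains 11 and 13. Of 9 bright microglial genes none was variable, which at an overall share of 1.7% says little for 9 genes. The complement subunit C1qb measured 12.70, 11.94, 12.43, 12.42 and 12.38, lowest in brain 12. The meningeal matrix genes Dcn and Sparc were variable, with 11.34, 12.46, 11.36, 12.93 and 12.35 for Dcn and 12.92, 14.73, 13.36, 13.95 and 13.83 for Sparc. Both were lowest in brain 11 and second lowest in brain 13, as Ttr was, with far smaller differences. Penk, also on the meningeal list, was highest in brain 13.

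Some interferon-induced genes varied, and 3 of them were high in the same brains. Such transcripts are switched on when interferon receptors activate the STAT and IRF factors that bind the interferon-stimulated response element. Viperin (Rsad2), an antiviral enzyme, measured 11.58, 12.04, 13.29, 12.00 and 13.69. The guanylate-binding protein Gbp2 measured 9.91, 11.74, 11.93, 10.02 and 12.34. Ifit3, an antiviral RNA-response protein, measured 11.29, 12.11, 12.05, 11.01 and 12.52. Brain 16 was highest for all 3 genes, and brains 11 and 14 were the lowest pair.

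Promoters of these 3 genes are shown because the genes were high in the same brains and because the response element is a short sequence that can be looked for. The motif searched was GAAANNGAAA on either strand, read as TTTCNNTTTC on the other strand, where N is any base. The 250 bases before each transcription start are those of RefSeq on build GRCm38.p6, printed 5′ to 3′ on the gene's own strand with matches in capitals. Rsad2 lies on the minus strand at chr12:26456453-26456702, Ifit3 on the plus strand at chr19:34583279-34583528 and Gbp2 on the plus strand at chr3:142620413-142620662.
Rsad2: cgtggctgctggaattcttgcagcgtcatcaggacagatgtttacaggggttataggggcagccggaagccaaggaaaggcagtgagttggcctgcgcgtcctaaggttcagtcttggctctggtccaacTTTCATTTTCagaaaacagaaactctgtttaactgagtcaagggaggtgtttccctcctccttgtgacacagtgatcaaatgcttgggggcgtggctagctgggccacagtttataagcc
Ifit3: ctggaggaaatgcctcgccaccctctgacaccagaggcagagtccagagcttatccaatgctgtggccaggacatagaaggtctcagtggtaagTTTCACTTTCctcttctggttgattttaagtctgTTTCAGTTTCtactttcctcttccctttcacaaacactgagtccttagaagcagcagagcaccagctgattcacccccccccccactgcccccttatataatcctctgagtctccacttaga
Gbp2: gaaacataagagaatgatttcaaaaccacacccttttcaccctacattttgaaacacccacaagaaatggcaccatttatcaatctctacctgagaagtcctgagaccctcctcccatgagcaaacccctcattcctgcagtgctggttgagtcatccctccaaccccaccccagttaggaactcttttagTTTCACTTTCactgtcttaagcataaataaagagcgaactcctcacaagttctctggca
Rsad2 and Gbp2 held 1 match each and Ifit3 held 2. The motif occurred in this window in 936 of 27025 genes (3.46%) of the RefSeq promoter table, and in 9 of the 21 genes of the interferon list that could be matched to it (42.9%). Of the 7 bright genes matched, 5 held it, among them B2m with an SD of 0.17, while H2-K1 and H2-D1 held none. The dimmer Ifi47 and Eif2ak2, with SDs of 0.95 and 0.74, held none either. Whether the motif goes with spread between brains was not tested. A match is a run of letters and not evidence that a factor was bound.

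Of 26 interferon response genes on the array 8 were bright, with a median SD of 0.35, and 3 of the 8 were variable. Brain 16 was highest in 4 of the 8, against 20.6% of all bright probe sets. The profile nearest to Rsad2 among 2948 genes was that of Fhl1 (0.51), a LIM domain gene that is on no interferon list, followed by Ifit3 (0.52). The other 5 were closer together. Gbp3 measured 10.85, 11.34, 11.37, 10.96 and 11.75, the order of Gbp2 at a smaller amplitude. The class I antigen presentation genes H2-K1, H2-D1 and B2m had SDs of 0.08, 0.11 and 0.17, and B2m was lowest in brain 16. Among dimmer genes the chemokine Cxcl10, which is induced by interferon, measured 8.47, 9.28, 10.08, 7.97 and 10.72, again highest in brain 16 and lowest in brains 14 and 11. Irf7, which sustains the interferon response, measured 9.54, 9.20, 8.72, 9.22 and 9.29 and did not follow this order. The SD of Rsad2 was 0.91 in single brains and 1.02 within the groups of pools, and that of Ifit3 was 0.62 in single brains and 0.67 within pools. For Gbp2 it was 1.14 in single brains and 0.75 within pools.

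Several chemokines were lowest in brains 13 and 16, while Ccl4 and Cxcl10 followed other orders. Ccl4, which draws monocytes and T cells, measured 12.60, 10.64, 12.19, 12.22 and 11.38 in the single brains, against 10.33, 10.66 and 10.59 in the treated ischemic pools. Brain 12 was the lowest of the 5 single brains and lay among the treated ischemic pools. Ccl3, a related chemokine, measured 11.75, 11.60, 10.98, 11.49 and 10.56 in the single brains, against 11.55, 11.73 and 11.39 in the treated ischemic pools. Ccl3 was lowest in brain 16, so the 2 chemokines did not share an order. The dimmer Ccl2, a monocyte attractant, measured 11.51, 12.19, 10.14, 11.36 and 10.08, and Cxcl1, a neutrophil attractant, 11.07, 11.05, 10.10, 11.02 and 10.07. Brains 13 and 16 were lowest for Ccl2, Ccl3, Ccl7, Cxcl1 and Cxcl2 but highest for Cxcl10, and brain 16 was at the floor for Ccl7 and Cxcl2. The cytokines Tnf and Il1b were at the floor in all 5 brains. Of 30 cytokine and chemokine genes on the array 5 were bright, with a median SD of 0.50, and 2 were variable, Ccl4 and the macrophage growth factor Csf1.

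The inducible Hsp70 genes, strongly switched on by ischemia, were nearly even. Hspa1b, an inducible heat shock protein of the Hsp70 family, measured 15.95, 16.03, 15.80, 16.09 and 15.79 in the single brains, against 16.11, 15.75 and 15.96 in the treated ischemic pools, 12.40, 10.72 and 11.08 in the drug control pools, and 12.55, 10.90 and 10.82 in the control pools. Hspa1a, a near-identical paralog whose probe set may take up signal from Hspa1b, measured 16.28, 16.36, 16.03, 16.48 and 16.18. All 5 single brains lay at the level of the treated ischemic pools, well above both groups without ischemia. The 21 bright heat shock and co-chaperone genes had a median SD of 0.18, against 0.14 over all bright probe sets. None was variable, which at an overall share of 1.7% says little for 21 genes. Their order was shared in part: brain 13 was lowest in 12 of the 21 and brain 14 highest in 9. Over all bright probe sets 24.6% were lowest in brain 13 and 14.3% highest in brain 14. The co-chaperone Bag3 measured 11.72, 12.28, 11.32, 12.51 and 11.99, and the mitochondrial chaperonin Hspe1 13.86, 14.11, 13.04, 13.97 and 13.79.

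Immediate early genes varied more than most genes. Of 27 bright members the median SD was 0.25, against 0.14 over all bright probe sets, and 1 was variable. Fos measured 14.74, 14.55, 14.48, 15.23 and 14.86 in the single brains, against 14.74, 15.28 and 14.61 in the treated ischemic pools. Brain 14 was highest in 15 of the 27 and brain 13 lowest in 11, against 14.3% and 24.6% of all bright probe sets. The profiles nearest to Fos among 2948 genes were those of Btg2, an antiproliferative factor, and Zfp36, an mRNA-destabilising protein (0.08 and 0.09), both members of the same early response. The variable member was Egr2, a zinc finger transcription factor, at 11.72, 11.98, 9.79, 12.03 and 11.79. Brain 13 was low for Egr2, while the other 4 brains differed by little. Without brain 13 its SD was 0.15, against 0.94 with it. Atf3, a stress-induced transcription factor, measured 12.44, 12.83, 11.86, 13.16 and 12.44, again lowest in brain 13 and highest in brain 14.

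**Figure D3:**
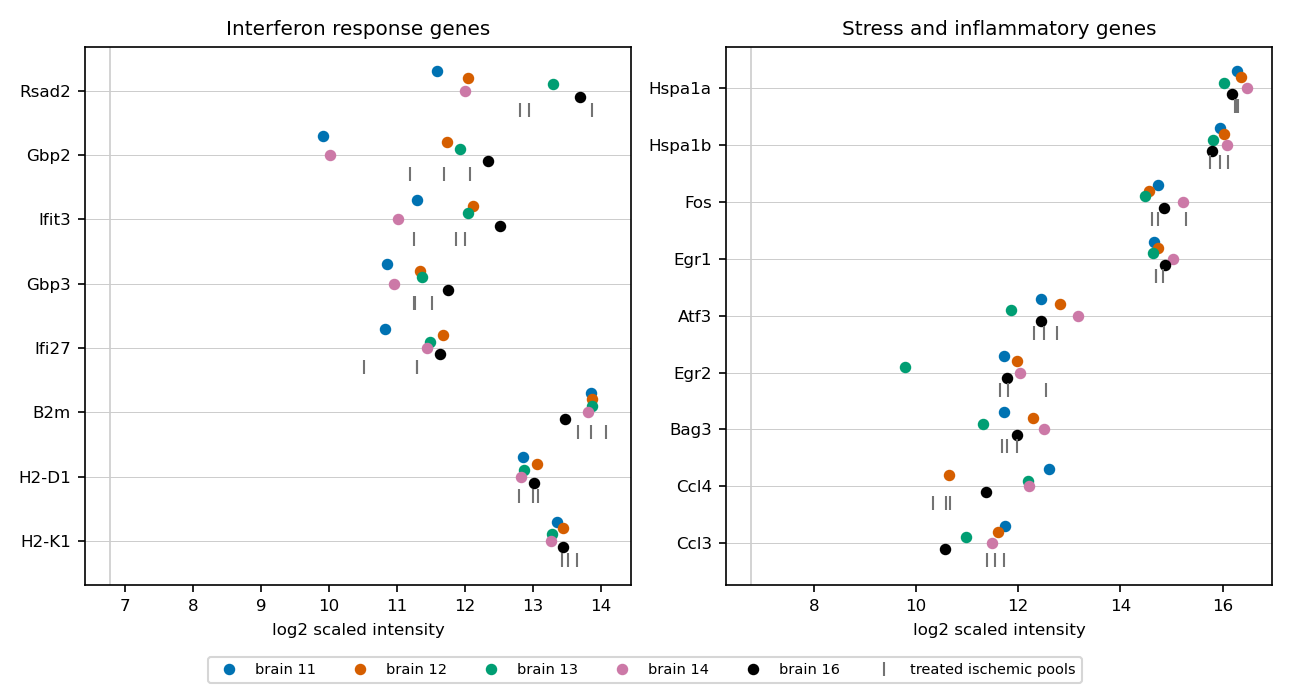
Log2 scaled intensity (horizontal) of interferon response genes (left) and of stress, immediate early and chemokine genes (right), with 1 dot per single brain in the upper rows of each gene and 1 bar per treated ischemic pool beneath. Rsad2, Gbp2, Ifit3 and Gbp3 are highest in brain 16, while Hspa1a and Hspa1b stay within SDs of 0.17 and 0.13.

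Transcripts carried by blood differed moderately. Alpha globin (Hba-a1) measured 11.48, 11.24, 12.28, 11.39 and 10.75 in the single brains, against 13.00, 13.12 and 11.58 in the treated ischemic pools. The calcium-binding protein S100a8 of neutrophils measured 9.15, 8.56, 9.71, 8.51 and 8.01 in the single brains, against 8.44, 8.88 and 9.12 in the treated ischemic pools. Both were highest in brain 13 and lowest in brain 16, and Hba-a1 had the profile nearest to that of S100a8 (0.19). Penk and Rab3b were nearly as near to S100a8 (0.21 and 0.22), and the profiles nearest to Hba-a1 were those of Rab3b and Myh9 (0.10 each). This profile was thus not particular to transcripts carried by blood. S100a9, the partner of S100a8, was at the floor in brains 12 and 16 and highest in brain 13 at 9.02. The other bright genes of the red blood cell list, Ank1, Klf1, Bpgm and Car2, had SDs of 0.11 to 0.31, and Ank1, Bpgm and Car2 are also expressed outside red cells. Ank1 ran against Hba-a1, highest in brain 16 at 13.48 and lowest in brain 13 at 12.73. Of the other neutrophil genes, the antimicrobial peptide Camp was lowest in brain 13 at 9.996 and the elastase Elane was highest in brain 16 at 9.52. No neutrophil or monocyte gene on the array was bright.

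Housekeeping groups varied least. The median SD was 0.10 in 23 bright ribosomal and translation genes, 0.10 in 30 bright cytoskeleton and proteasome genes, 0.10 in 21 hypoxia and glycolysis genes and 0.12 in 26 respiratory chain genes. On the respiratory chain list 1 gene was variable, with an SD of 0.57. The glucocorticoid and clock list had a median SD of 0.12 in 16 bright genes, the neuron and synapse list 0.13 in 27, and the NF-kB, adhesion and prostaglandin list 0.15 in 11. Oligodendrocyte genes had a median SD of 0.22 in 11 bright members, endothelial and mural genes 0.27 in 7 and meningeal and fibroblast genes 0.31 in 13, of which 3 were variable (Dcn, Penk and Sparc). The antioxidant list, of interest because the drug given is an antioxidant, had a median SD of 0.13 in 15 bright genes. Of these 1 was variable, Gpx3, described above, with an SD of 0.65. The metallothionein Mt2 measured 16.29, 16.60, 16.38, 16.35 and 16.32, and heme oxygenase 1 (Hmox1) 12.48, 12.78, 12.24, 12.51 and 12.48. Among single genes the smallest SDs were those of the dynein light chain Dynlrb1 (0.01), the neuroendocrine chaperone Scg5 (0.01), the proteasome chaperone Psmd9 (0.01) and the dynein heavy chain Dync1h1 (0.02). Scg5 measured 14.04, 14.01, 14.02, 14.04 and 14.02. Dynlrb1 has a second bright probe set with an SD of 0.26, so its place at the bottom rests on 1 probe set. The other genes among the 15 least variable were Mark3, Dnajb6, Mtch2, Eif4a2, Rnf11, Rhou, Wdr61, Pfkl, Marcks, Psmd13 and Slc6a8, with SDs of 0.02 to 0.03. An SD of 5 values is itself imprecise, and the order among these genes was not tested.

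Several entries among the variable genes rest on single probe sets whose partners disagree or whose names mark them as shared or of lower quality. Stmn3, a neuronal microtubule regulator, had an SD of 1.17 with 1 probe set (10.26, 11.85, 12.02, 11.91 and 9.45) and 0.08 with the brighter other. Plain probe sets, whose names carry no such mark, made up 44 of the 62 variable probe sets (71.0%), against 82.4% of bright probe sets. Cggbp1, Rbfox2, Got2, Pcp2 and Tyms-ps were variable through marked probe sets, with SDs of 0.70 to 0.82. The values given above for Shox2, Penk and Prkcd also come from marked probe sets. A second, dimmer Shox2 probe set, also marked, had brain 14 at the floor with brains 11 and 13. Another marked Penk probe set was at the floor in every single brain. For Prkcd a plain probe set was variable too, with an SD of 0.68. Srgn and Pigs were variable with plain probe sets and SDs of 0.71 and 0.69, below those within the pools (1.46 and 1.63).

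The pools, each an average over 6 brains, were set beside these spreads. Between the 2 arrays of a pair, the SD of the log2 differences over bright probe sets was 0.26 to 0.35 in the 10 pairs of single brains. It was 0.46 to 0.59 in the 3 pairs of treated ischemic pools and 0.46 to 0.73 over all 12 pairs of pools of the same group, so the ranges did not overlap. The median SD of a bright probe set was 0.14 in the single brains, 0.23 in treated ischemic pools, 0.25 in ischemic pools, 0.23 in drug control pools and 0.26 in control pools. Pools of the same number in different groups tended to deviate together from their group means (median r 0.59 over 18 pairs). The SDs of the pools thus include a pattern shared by replicate number. The 3'/5' ratios also differed more among pools than among single brains, at 1.15 to 2.14 for actin and 0.90 to 1.55 for Gapdh. For actin they were 1.65 to 1.97 in the pools numbered 1 and 1.15 to 1.34 in those numbered 3. Whether these ratios bear on the spread was not tested. The single brains exceeded the pooled SD of the pools in 525 of 3655 bright probe sets (14.4%) and in 41 of the 62 variable ones. The deposited scale moved with this result: it was low on all 5 single brains and on treated ischemic pools 2 and 3, and the other 10 pools had been set to a trimmed mean of 2500. Treated ischemic pools 2 and 3, both on the low scale, differed from each other with an SD of 0.54, more than any pair of single brains. Whether the single brains were processed together is not stated, so pooling and processing cannot be told apart.

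**Figure D4:**
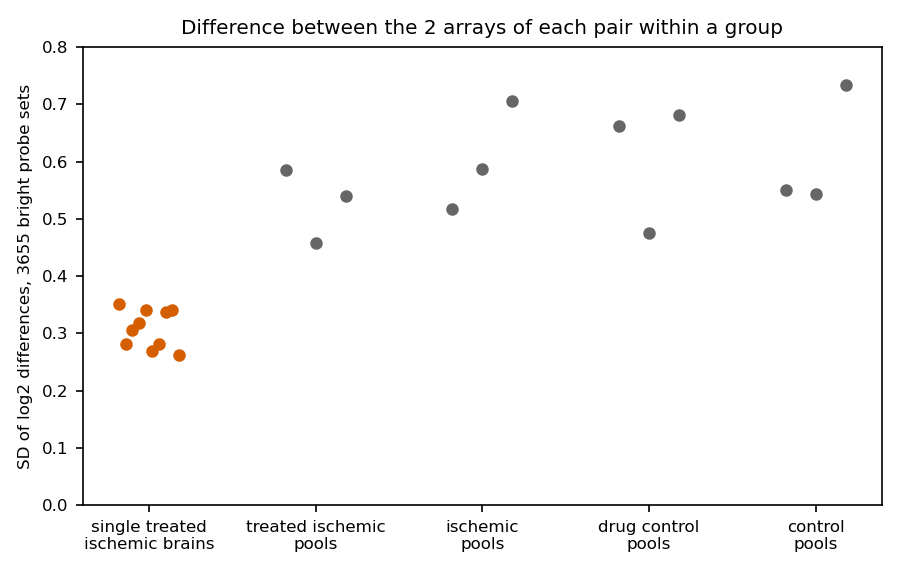
SD of the log2 differences between the 2 arrays of each pair within a group (vertical, over 3655 bright probe sets), 1 dot per pair. All 10 pairs of single treated ischemic brains (orange) lie between 0.26 and 0.35, below the 12 pairs of pools at 0.46 to 0.73.

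Spread was then tested for each of 10541 probe sets with limma, on the absolute deviations of arrays from their group mean, as single brains minus the mean of the 4 groups of pools. A larger spread in the single brains was called for 156 probe sets (1.48%) and a smaller one for 650 (6.17%) at a Benjamini-Hochberg adjusted p under 0.05. Of the 156, 97 had at least 2 brains at the floor. Probe sets were tested where they exceeded the floor on 3 or more of the 17 arrays. Where every pool was at the floor only a larger spread could be called. Where all 5 single brains were at the floor only a smaller one could. Such probe sets were not counted apart, so both shares can include calls of fixed direction. Of the bright probe sets 21 were called larger, of which 12 were variable, and 154 smaller. An F ratio of the variances, chosen after seeing the data, called 72 larger (0.684%) and 846 smaller (8.04%), of which 49 and 459 were shared with limma. The counts depended on every single brain: they were 40 larger and 0 smaller without brain 11, 73 and 9 without brain 12, 49 and 3 without brain 13, 75 and 9 without brain 14, and 76 and 7 without brain 16. With the replicate number of the pools as a block, 128 were called larger and 91 smaller.

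Both tests called 7 bright probe sets larger in the single brains: Shox2, Ttr, Hcrt, Agt, Calb2, Syt2 and Glce. Agt deviated by 0.91 more in single brains than in pools (SE 0.09, limma adjusted p = 0.000204), with an SD of 1.10 in single brains and 0.20 within pools. Hcrt deviated by 1.73 more (SE 0.21, limma adjusted p = 0.000863) and Shox2 by 2.09 more (SE 0.29, limma adjusted p = 0.00243). The SD of Calb2 was 0.79 in single brains and 0.12 within pools, a difference in deviation of 0.66 (SE 0.08, limma adjusted p = 0.00123). Each of these 4 genes passed in 3 of the 5 fits that left out 1 brain, with adjusted p up to 0.0848. Ttr deviated by 2.04 more (SE 0.59, limma adjusted p = 0.0491), passed in none of those fits and had an adjusted p of 0.31 without brain 11. With the replicate block Ttr was not called (limma adjusted p = 0.0623). Against the treated ischemic pools alone Ttr, Syt2 and Glce were not called (limma adjusted p = 0.186, 0.146 and 0.0761). Syt2, a calcium sensor of fast synapses, measured 11.72, 12.26, 11.08, 12.87 and 12.41, with an SD of 0.69 in single brains and 0.14 within pools. Glce, an enzyme of heparan sulfate synthesis, was called with an SD below 0.5.

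Limma alone also called Th, Ddc, Gpx3, Penk, Aldh1a1 and Psap among variable genes. Of these, Th, Gpx3, Penk and Psap were not called against the treated ischemic pools alone (limma adjusted p = 0.102, 0.0784, 0.31 and 0.0854). Psap was not called with the replicate block (limma adjusted p = 0.0937), and Penk and Psap passed in none of the 5 fits that left out 1 brain. On the thalamus, hypothalamus and hindbrain list 4 of 24 genes tested were called larger (Hcrt, Th, Calb2 and Ddc), against 1.48% of all probe sets, and 1 smaller. Each was also chosen above for its spread between the same brains, so this count is a description. No gene of the heat shock, immediate early, cytokine or interferon lists was called larger, among 27, 36, 23 and 25 tested. At an overall share of 1.48%, this absence says little for lists of that size. Avp and Oxt were not called either (limma adjusted p = 0.815 and 0.977), and their SDs within pools were 1.90 and 1.67. The smaller calls among named bright genes included Psmd1, Sf3a2, Sars, Bcap31, Arf3 and Kif5a, whose SDs were 0.13 to 0.49 in single brains and 2.15 to 2.85 within pools. For Arf3 the spread of the pools lay in replicate 2, at 8.29 to 9.72 over the 4 groups, against 12.19 to 13.62 in replicates 1 and 3.

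**Figure D5:**
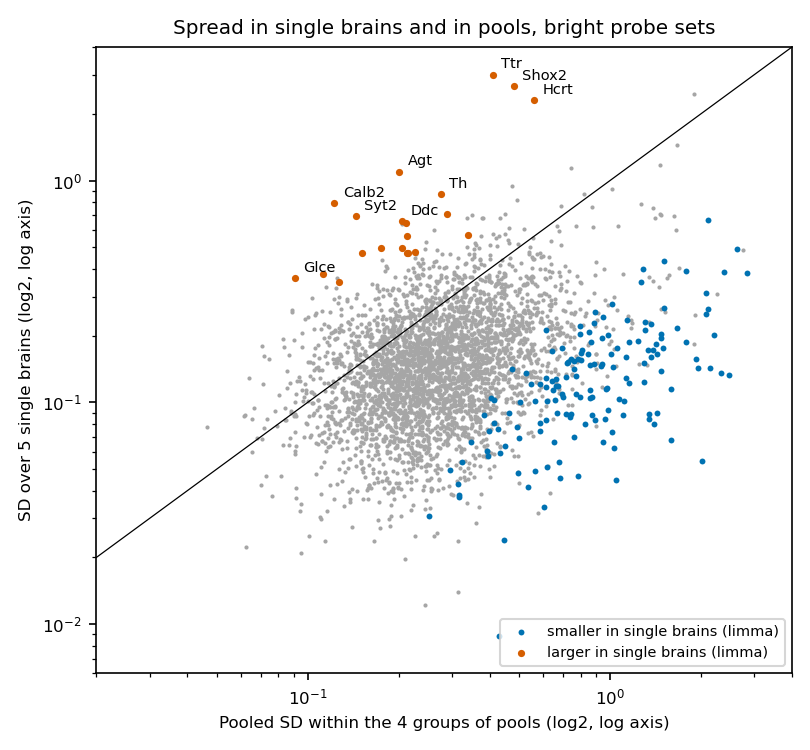
SD over the 5 single brains (vertical) against the pooled SD within the 4 groups of pools (horizontal), both log2 on log axes, 1 point per bright probe set, with the line of equality. Orange points were called larger and blue points smaller in single brains by limma, 21 and 154 of 3655, and most points lie below the line.

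Few probe sets differed in level between the single brains and the treated ischemic pools after adjustment, which does not show that levels were equal. Limma called 4 probe sets higher in the single brains (0.0379% of 10541) and 0 lower, with 370 and 538 at an unadjusted p under 0.05. Gpr3, a constitutively active receptor that raises cyclic AMP in neurons, measured 9.81, 9.03, 9.63, 9.74 and 9.45 in the single brains and was at the floor in all 3 treated ischemic pools. It was at least 6.76-fold higher (log2 difference 2.76, SE 0.24, limma adjusted p = 0.000112). A dim probe set of Bbs9, a subunit of the cilium-associated BBSome, measured 8.92 to 9.36 in the single brains, was at the floor in all treated ischemic pools and was at least 5.39-fold higher (SE 0.38 log2, limma adjusted p = 0.0394). The brighter second probe set of Bbs9 measured 9.92 to 11.05 in the single brains, against 10.21, 9.997 and 10.12 in the treated ischemic pools, and was not called (log2 difference 0.49, limma adjusted p = 0.763), so the call rests on the dim one. Inhbb, the beta B subunit of activin and inhibin, measured 8.34 to 8.57 in the single brains, against 6.77, 6.77 and 7.89 in the treated ischemic pools (log2 difference 1.30, SE 0.20, limma adjusted p = 0.0394). The fourth was an unnamed probe set. None was bright, and Gpr3 and Inhbb were also at or near the floor in the other pools. In all 4 the single brains alone sufficed for the filter of 3 arrays above the floor, and pool values at the floor have no spread. The p values of these 4 are thus no separate support for a difference. Without treated ischemic pool 3 the counts were 16 higher and 17 lower, and without treated ischemic pool 2 or brain 14 they were 1 and 0.

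The variable genes bracketed the pools. The mean of the treated ischemic pools lay within the range of the 5 brains for 52 of the 62 variable probe sets (83.9%), against 2002 of all bright ones (54.8%), as a wider range makes likelier. Of the 62, 1 differed in level at an unadjusted p under 0.05, and 0 after adjustment.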

How the data were processed

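The authors deposited 1 linear intensity per probe set and array, with values below 0 on every array; the software and scaling behind them were not given in the sources used here. Groups of pools came from titles and the single brains from descriptions. The gene lists, the members and the measures were chosen with earlier results of these data known. Each array was scaled to a mean of 2500 over its 2nd to 98th percentiles, floored at 109.5, the 25th percentile over the pools after scaling, and log2 transformed. Symbols came from the platform annotation: 10855 probe sets had 1, 396 several and 1237 none. The 66 control probe sets were left out.

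Named genes were the 25 most and 15 least variable bright genes, up to 4 brightest and 4 most variable members of each of 24 lists, fixed anchor genes with their 5 nearest profiles, and up to 15 rises and 10 falls per test, or the 5 smallest p values where fewer than 5 passed. Folr1, Kl, F5, Slc4a5, Cxcl10, Ccl2 and the other genes said to be added were chosen after their values were seen, as were Hcrt, Avp, Rsad2 and Tbr1 as anchors, and several list members are named beyond the rule.

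Linear models used limma 3.58.1 in R 4.3.3 on the probe sets that exceeded the floor in 3 or more of the 17 arrays. Spread was tested on absolute deviations from the group mean, adjusted for group size; levels were tested as single brains minus treated ischemic pools. All 17 arrays shared 1 estimate of the spread. P values are two-sided, with Benjamini-Hochberg adjustment over all tested probe sets. The labels do not state that the brains came from separate experiments, and no correlation over 5 brains was computed. Of pools with the same replicate number in different groups, deviations from the group mean correlated with r of -0.17 to 0.71 (18 pairs; 36 pairs of unlike number, -0.65 to 0.34), and the pairs below 0.1 all involved treated ischemic pool 3. The tests were tried on simulated data, where the limma test of spread made a larger share of false calls than the 0.05 it aims at, so its adjusted p values can be too small; the F ratio was added as a second test. Tables and figures used Python 3.11.15 with pandas 2.3.3 and matplotlib 3.10.9. Arrays carry no read depth, so their number limits the precision. Alternatives changed the scaling, the floor, the brightness limit, the test, the samples and the replicate block.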

Additional observations from a re-analysis of the deposited data

Results flagged for a closer look

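Within the 5 single brains, 35 genes and 22 list means were examined for 1 brain lying far from the other 4, by Dixon's test at a critical value of 0.71, and 6 of these 57 stood out; chance flags about 1 in 20 groups, a rate that does not hold here because 25 of the 35 genes were chosen for a large SD. Transthyretin (Ttr) was lowest in brain 11, at 6.77 against 12.82 to 13.95 in the other brains. The mean of the bright choroid plexus and ependyma genes, which Ttr carries and which is thus no separate result, was -1.95 in brain 11. Egr2 was lowest in brain 13 at 9.79. Fkbp5, a glucocorticoid-induced co-chaperone, was highest in brain 11 at 13.02, against 12.56 to 12.66 in the other brains. The mean of the ribosomal and translation genes was highest in brain 12 at 0.13, and that of the respiratory chain genes was lowest in brain 13 at -0.10. The last 2 departures are small in size, and no cause was tested for any of the 6.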

How the results depend on the processing

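The count of variable probe sets (62) and the median SD of 0.14 stayed within 1.5 times and within the error of an SD under both other scalings and both other floors. The count was 233 with bright set at a mean of 1000 and 22 at 5000, and 52 to 79 with 1 brain left out, where the median SD was 0.13 to 0.15. Of the 25 most variable genes, 24 to 25 were shared under the other scalings and floors and 17 to 21 with 1 brain left out. Single gene SDs moved beyond their error in 24 of 360 recomputations, and list ranges by over 1.5 times in 20 of 220. The number with larger spread was 47 against treated ischemic pools alone, 28 among probe sets bright over 17 arrays, 343 with squared deviations, 72 by the F ratio and 40 to 277 with 1 array left out. The number with smaller spread was 1135 with the floor at the 40th percentile, 130, 186 and 1927 under the first 3 of these settings, and 0 to 2684 with 1 array left out. Leaving out a pool gives the remaining pair equal deviations, which by construction lowers the residual spread. With the replicate block among pools 91 were smaller and 128 larger, and the single brains share no number with the pools. The number higher than in treated ischemic pools was 2 with the floor at the 40th percentile, 0 among bright probe sets and 1 to 16 with 1 array left out. The number lower was 5 in a fit of those 8 arrays and 0 to 17 with 1 array left out. Where no cause is named, the cause was not tested. With 5 brains an SD is imprecise, and values at the floor have no order.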

Other observations

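A few probe sets too dim to count as bright were present in some of the 5 brains and at the floor in others. Phf7, a PHD finger protein, measured 6.77, 10.90, 11.21, 6.77 and 11.26 in brains 11, 12, 13, 14 and 16. Brains 11 and 14 were at the floor and the other 3 well above it. The integrin subunit Itgb5 measured 7.80, 6.77, 9.91, 8.52 and 9.29 in the single brains and was at the floor in every pool. The second Shox2 probe set, dimmer than the one described above, measured 6.77, 8.97, 6.77, 6.77 and 9.12, with brains 12 and 16 again highest. Limma called all 3 larger in spread in the single brains than in the pools (limma adjusted p of 1.51e-05 to 0.0214). Itgb5 entered the test only through the single brains, so the direction of its call was fixed in advance. For Itgb5 and Shox2 an SD of 0 or near 0 in the pools also lowers the standard error. Their calls are thus no support beyond the values given.

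Colony-stimulating factor 3 (Csf3), which mobilises neutrophils, measured 11.10, 11.24, 10.64, 10.48 and 8.59 in the single brains, lowest in brain 16 like Ccl2 and Cxcl1. Selplg, the P-selectin ligand of leukocytes and microglia, was variable at 11.92, 10.46, 11.87, 11.51 and 12.20, lowest in brain 12 like C1qb.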
